A study of Mus musculus with 8 samples.

Results

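The genes described here are interferon-stimulated genes together with the sensors, receptor chains and transcription factors that act upstream of them, 39 genes of the 53379 in the deposited count files. They were chosen as a list of symbols, with no measured value in the rule, and each symbol matched 1 Ensembl gene. By role they are 7 nucleic acid sensors and adaptors (Ifih1, Ddx58, Dhx58, Zbp1, Eif2ak2, Tmem173, Trim25), 2 receptor chains (Ifnar1, Ifnar2), 5 Stat and Irf factors (Stat2, Irf1, Irf3, Irf7, Irf9), 3 genes of the ISG15 system (Isg15, Usp18, Herc6), 3 Ifit genes, 5 Oas genes, 3 Parp-linked genes (Parp9, Parp14, Dtx3l), 6 further antiviral effectors (Mx1, Mx2, Rsad2, Cmpk2, Bst2, Samd9l) and 5 other induced genes (Rtp4, Ifi35, Ifi44, Ifi27, Xaf1). The mRNA libraries came from 4 untreated mouse mammary carcinoma cell lines on a C57BL/6 background, 2 libraries each. Tumours of MMTV-PyMT mice gave rise to the lines pB2 and pB3, in which the polyoma middle T oncogene is driven by the promoter of the mouse mammary tumour virus. The lines Epcam hi and 687g were derived from tumours of MMTV-PyMT-Snail-IRES-YFP reporter mice, which carry the same oncogene. All 4 lines grew as monolayers in DMEM/F12 medium with adult bovine serum, and the labels name no interferon or other agent added. Each line stands for 1 derivation, so differences between lines, mouse models and cell states cannot be told apart, and the labels do not say that the 2 libraries of a line came from separate cultures, so p-values measure the spread between these libraries, which may be technical.

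Interferons are secreted proteins that cells make when sensors such as RIG-I (gene Ddx58), MDA5 (Ifih1) or the cGAS and STING (Tmem173) pathway detect foreign or misplaced nucleic acid. Type I interferon binds a receptor made of IFNAR1 and IFNAR2, the kinases JAK1 and TYK2 phosphorylate STAT proteins such as STAT2, and these join IRF9 to form a factor that binds the interferon-stimulated response element (ISRE) in promoters of the induced genes. Many of the sensors and factors are themselves induced, and carcinoma cells can express induced genes without added interferon.

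The ISRE has the core GAAA, any 2 bases, then GAAA, which was searched on both strands, with overlapping matches joined, in RefSeq promoter windows of 300 bases (GRCm38.p6), from 250 bases before the transcription start into the transcript. A window was given for 28 of the 39 genes, and 11 of these (39.3%) held the core, against 3.44% of all 32851 windows and 3.99% of the 27025 genes with a window. The core TTCNNNGAA, the GAS element read by STAT dimers, lay in 8 of the 28 (28.6%), against 8.3% of all windows and 9.55% of the genes with a window. The 11 genes with the ISRE core were Ifih1, Ddx58, Eif2ak2, Stat2, Isg15, Ifit1, Ifit3, Oas1a, Oas3, Rsad2 and Bst2. The 140 bases before the start are shown for 4 of them whose levels differ most clearly between lines or that serve as family examples, and for Oasl1 and Cmpk2, which differ strongly between lines and hold no core in their windows. They run 5′ to 3′ on the gene's strand, with ISRE core matches in capitals. Isg15 lies at chr4:156200819-156200958 (minus strand), Ifit1 at chr19:34640749-34640888 (plus), Oas1a at chr5:120907526-120907665 (minus), Bst2 at chr8:71537473-71537612 (minus), Oasl1 at chr5:114923100-114923239 (plus) and Cmpk2 at chr12:26469075-26469214 (plus).
Isg15: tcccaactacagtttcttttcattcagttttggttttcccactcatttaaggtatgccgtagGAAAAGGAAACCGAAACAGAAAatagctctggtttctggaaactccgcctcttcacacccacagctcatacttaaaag
Ifit1: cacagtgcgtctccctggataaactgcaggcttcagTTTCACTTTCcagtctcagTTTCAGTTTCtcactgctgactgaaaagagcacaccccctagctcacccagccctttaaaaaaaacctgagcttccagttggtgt
Oas1a: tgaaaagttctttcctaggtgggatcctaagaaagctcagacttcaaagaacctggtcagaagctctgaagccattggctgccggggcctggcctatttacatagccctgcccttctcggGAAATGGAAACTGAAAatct
Bst2: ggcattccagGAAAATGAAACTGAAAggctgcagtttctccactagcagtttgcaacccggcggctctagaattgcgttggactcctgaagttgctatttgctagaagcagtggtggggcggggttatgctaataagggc
Oasl1: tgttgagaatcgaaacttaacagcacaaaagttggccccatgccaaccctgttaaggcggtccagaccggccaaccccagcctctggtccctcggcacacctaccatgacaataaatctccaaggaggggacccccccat
Cmpk2: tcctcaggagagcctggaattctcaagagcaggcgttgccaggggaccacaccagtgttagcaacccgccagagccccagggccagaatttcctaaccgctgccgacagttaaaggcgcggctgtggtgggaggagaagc
The Isg15 match joins 3 overlapping cores into a run of 22 bases that begins 78 bases before the start, and Ifit1 holds 2 separate cores on the opposite strand. A match is a description of letters, and the absence of a match says only that the core is not in this window.

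Total counts per library ranged from 12442730 to 19149916, so that 3 counts were worth 0.159 to 0.222 CPM (read counts relative to each library's total, as scaled by the trimmed mean of M values). The 2 libraries of a line correlated across the 15890 genes tested with r = 0.976 to 0.993. Among the interferon-related genes, 0 of the 33 tested differed over 2-fold between the 2 pB2 libraries, 2 between those of pB3, 6 between those of Epcam hi and 3 between those of 687g. These are 0%, 6.06%, 18.2% and 9.09% of the 33, where 2.96%, 3.22%, 13.4% and 6.32% of all genes tested did so in the same order. Epcam hi replicate 1 was the higher library for 26 of the 33 (78.8%), against 47.9% of all genes tested. The summed level of 10 leukocyte markers was 0.201 to 2.79 CPM in every library, with Siglech at 0 counts in all 8. Of 6 fibroblast markers, Dpt was at 0 in all 8 libraries, and the summed level was 60.4 to 81.0 CPM for pB2, from Pdgfra and Col1a1, against 2.30 to 21.1 CPM in the other lines. Of 5 endothelial markers, Erg alone exceeded 1 CPM, in pB2, where the sum was 5.18 to 7.89 CPM against at most 0.940 CPM elsewhere. The other markers of both lists were low in pB2. Cdh5, Kdr, Tek and Lum were at 0 counts in both of its libraries, and Dcn at 2 and 0. The pB2 means of Pecam1 and Pdgfrb were 0.413 and 0.630 CPM. The fibroblast and endothelial sums, carried by Pdgfra, Col1a1 and Erg, were thus highest in the line in which many of the interferon-related genes were highest. Their part in those levels was not tested. Of 6 epithelial markers, the keratins Krt8 and Krt18 were expressed in every library. The 687g libraries, labelled as mammary carcinoma like the rest, had 3.69 and 3.85 CPM of Epcam against 264 CPM or more in the others. Cdh1 had line means of 155 CPM for pB2, 51.4 for pB3, 488 for Epcam hi and 1.32 for 687g. Krt14 had 204, 14.7, 2.54 and 0.452 CPM in the same order, and Krt5 reached at most 0.652 CPM in a line mean.

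By the mean of log2 CPM, which weights each gene equally, the list was highest in pB2 and lowest in Epcam hi. Over the 33 genes with enough counts for a test, the mean log2 CPM was 3.31 and 3.23 for pB2, 2.31 and 2.41 for pB3, 2.47 and 2.21 for 687g, and 2.01 and 1.59 for Epcam hi. On this measure the pB2 libraries lay above all others and the Epcam hi libraries below all others, while pB3 and 687g overlapped. The summed CPM of the same genes, which follows the abundant ones, did not give that order. It was 627 and 587 for pB2, 611 and 461 for Epcam hi, 521 and 546 for pB3, and 541 and 490 for 687g, so that Epcam hi replicate 1 lay above pB2 replicate 2 and above every pB3 and 687g library. Trim25 and Irf3, both highest in Epcam hi, made up 147 and 106 CPM of the sum in Epcam hi replicate 1. The line mean was highest in pB2 for 19 of the 33 genes and lowest in Epcam hi for 18. Among all genes tested, 32.5% were highest in pB2 and 23.2% lowest in Epcam hi. The remaining 6 genes, Ifit3, Oas2, Oas3, Mx1, Mx2 and Rsad2, had too few counts for a test. Per kilobase of exon, Bst2 had the highest level of the 39 genes in pB2 (52.4 CPM per kb), pB3 (41.1 CPM per kb) and Epcam hi (27.7 CPM per kb), and Ifi27 in 687g (40.8 CPM per kb).

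**Figure D1:**
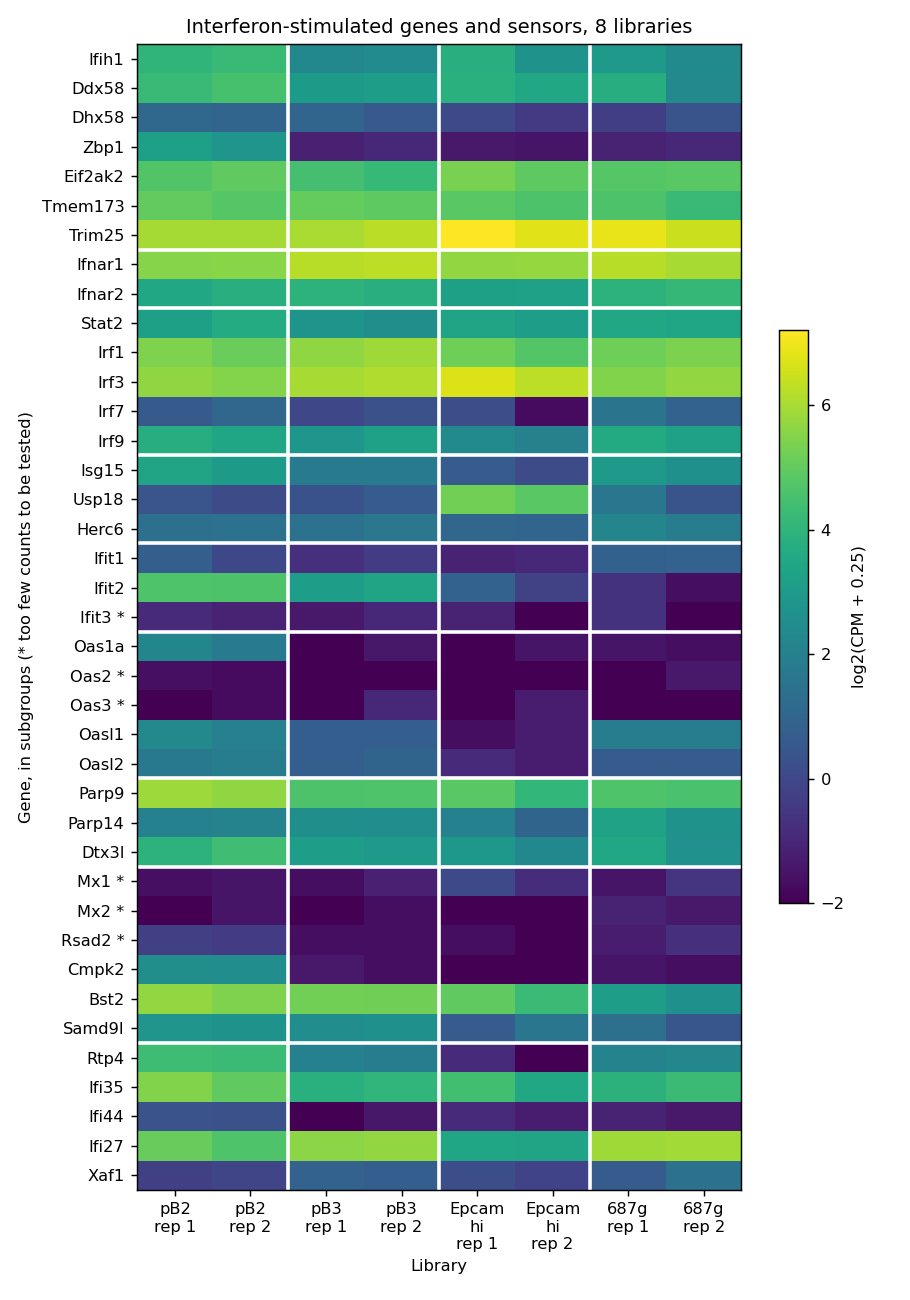
Levels of the 39 genes (rows, grouped by role) in the 8 libraries (columns) as log2(CPM + 0.25), with the 6 genes that had too few counts for a test marked by an asterisk. Rows such as Zbp1, Oas1a and Cmpk2 are bright in the 2 pB2 libraries alone, Usp18 in the 2 Epcam hi libraries alone, and Rtp4, Oasl1 and Oasl2 are darkest in Epcam hi.

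Differences were tested with edgeR's quasi-likelihood F test in 1 fit of all 8 libraries, with Benjamini-Hochberg adjustment over the 15890 genes. A gene was called where its adjusted p was under 0.05. In pB3 against pB2, 2 of the 33 genes were called higher, 14 lower and 17 were not called, where 44.8% of all genes were called, 21.6% higher and 23.2% lower. The median log2 fold change of the 33 was -0.83, against 0.02 for all genes. In 687g against Epcam hi, the contrast within the reporter model, 11 were called higher, 4 lower and 18 not, where 36.4% of all genes were called, 18.4% higher and 18.0% lower, and the medians were 0.37 and -0.03. The genes thus lay on opposite sides of 0 on balance in the contrasts within the 2 mouse models, both of which set the line with higher Vim against the line with lower Vim.

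The difference of these contrasts, 687g against Epcam hi minus pB3 against pB2, was called above 0 for 16 of the 33 genes and below 0 for 3, with 14 not called. Of all genes, 37.7% were called in this test, 18.2% above 0 and 19.5% below. The median difference was 1.02 on the log2 scale for the 33 genes and -0.07 for all genes.

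Across the models, Epcam hi against pB2 gave the strongest imbalance, with 3 genes called higher, 18 lower and 12 not, a median of -1.27 against 0.06 for all genes, of which 51.4% were called, 25.8% higher and 25.6% lower. In 687g against pB2, 5 were called higher, 14 lower and 14 not, with a median of -0.42 against 0.03, where 52.3% of all genes were called, 25.6% higher and 26.7% lower. The 5 higher calls became 1 with total counts in place of scaled totals and 3 with DESeq2. They were also fewer without either pB2 library or 687g replicate 1, fits in which a smaller share of all genes was called. In pB3 against Epcam hi, 11 were called higher and 4 lower, with a median of 0.62 against -0.04, where 29.4% of all genes were called, 14.8% higher and 14.6% lower. Fewer were called higher without pB3 replicate 2, and fewer lower without either pB3 library or Epcam hi replicate 1. In these fits, too, a smaller share of all genes was called. The lines 687g and pB3 differed least: 4 genes were called higher, 3 lower and 26 not, with a median of 0.24 against 0.00, where 25.8% of all genes were called, 12.8% higher and 12.9% lower. The 4 higher calls were fewer without either pB3 library, without 687g replicate 1 and without either pB2 library. The share of all genes called was smaller in each of these fits as well. The 2 higher calls in pB3 against pB2 likewise varied. They were fewer without either pB2 library or pB3 replicate 2, where a smaller share of all genes was called. They were more without 687g replicate 1 or either Epcam hi library. In a fit of pB3 and pB2 alone they were 6, where 63.7% of all genes were called. These contrasts share libraries and are not independent.

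**Figure D2:**
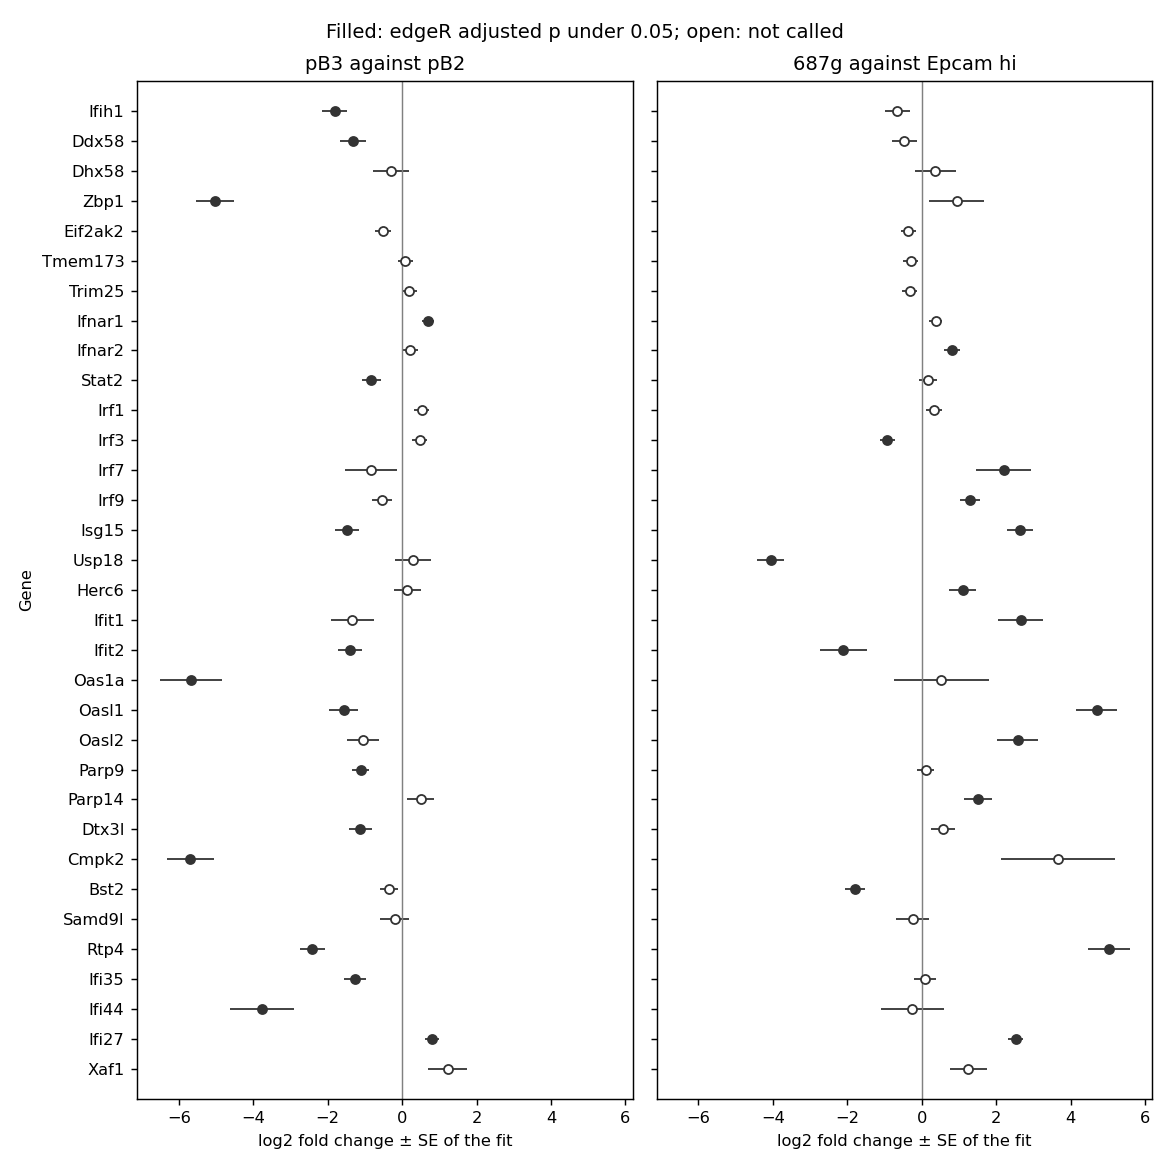
Log2 fold changes (points) with the standard error of the fit (bars) for the 33 tested genes in pB3 against pB2 (left) and 687g against Epcam hi (right), with filled points at an edgeR adjusted p under 0.05. Left of 0 are 14 filled points in the left panel and 4 in the right, and right of 0 are 2 and 11.

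Taking the 3 contrasts of each line together, 9 of the 33 genes were called higher in pB2 than in each of the other 3 lines (Zbp1, Ifit2, Oas1a, Parp9, Dtx3l, Cmpk2, Rtp4, Ifi35 and Ifi44), where 14.6% of all genes were, and 0 were called lower in pB2 than in each, where 12.5% were. In Epcam hi, 6 were called lower than in each other line (Irf9, Isg15, Oasl1, Oasl2, Rtp4 and Ifi27), where 5.03% of all genes were. Usp18 was called higher there than in each other line, where 6.21% of all genes were. In 687g, Ifit2 and Bst2 were called lower than in each other line, where 4.79% were, and none was called higher, where 6.39% were. None was called apart in pB3, where 2.61% of all genes were higher and 1.31% lower than in each other line.

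Among the sensors, Zbp1 differed most. Zbp1 encodes a sensor of Z-form nucleic acid that can trigger cell death. Its level was 8.80 and 6.73 CPM for pB2, 0.201 and 0.259 CPM for pB3, 0.140 and 0.109 CPM for Epcam hi and 0.223 and 0.268 CPM for 687g. The pB2 libraries stood far above the other 6, which were near the level of 3 counts. Against pB2 the log2 fold change was -5.02 ± 0.51 in pB3 (SE of the fit, edgeR adjusted p = 2.21e-06), -5.89 ± 0.55 in Epcam hi (8.65e-07) and -4.94 ± 0.50 in 687g (1.73e-06).

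Ifih1, which encodes the double-stranded RNA sensor MDA5, was measured at 15.9 and 18.3 CPM for pB2, 4.63 and 5.11 for pB3, 13.5 and 6.34 for Epcam hi and 7.53 and 4.90 for 687g. The pB2 libraries were the highest, and the 2 Epcam hi libraries differed from each other by over 2-fold. Ifih1 fell by 1.81 ± 0.34 on the log2 scale in pB3 against pB2 (edgeR adjusted p = 0.000557) and by 1.45 ± 0.33 in 687g against pB2 (0.002). In Epcam hi against pB2 it was not called in the full fit, but was with DESeq2 (-0.86, adjusted p = 0.0458), limma-voom (-0.93, 0.0278), total counts (-0.91, 0.0376) and without Epcam hi replicate 1 (-1.42, 0.000732), among others. A call in pB3 against Epcam hi (-1.01, edgeR adjusted p = 0.038) rested on Epcam hi replicate 1, without which the log2 fold change was -0.38 (0.406). That call was also lost in limma-voom (adjusted p = 0.113), in a fit of the 2 lines (0.108), and without pB2 replicate 1 (0.0623), pB2 replicate 2 (0.0649), pB3 replicate 1 (0.166) or pB3 replicate 2 (0.104). Ddx58, which encodes the RNA sensor RIG-I, had the same order of lines at its top, with 18.3 and 22.5 CPM for pB2, 7.72 and 8.54 for pB3, 14.0 and 10.99 for Epcam hi and 13.1 and 4.83 for 687g. In Epcam hi against pB2 it was not called in the full fit (-0.71). Some alternatives called it there, such as no filter on low counts (-0.75, edgeR adjusted p = 0.0141) and a fit of the 2 lines (-0.72, 0.0259). Another was a fit with replicate number as a block (-0.74, 0.0458). It fell by 1.33 ± 0.35 in pB3 against pB2 (edgeR adjusted p = 0.00665, but 0.0520 without pB2 replicate 2). In 687g against pB2 it fell by 1.18 ± 0.35 (0.0109), with 0.0751 without pB2 replicate 2, 0.0549 without 687g replicate 2, and a log2 fold change of -2.07 without 687g replicate 1.

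Tmem173, the STING adaptor, was called in none of the 7 tests in the full fit, with line means of 29.2 CPM for pB2, 31.0 for pB3, 26.5 for Epcam hi and 21.5 for 687g (edgeR adjusted p = 0.0758 to 0.763). It was called lower in 687g than in pB2 with total counts (-0.68, 0.0136) and without 687g replicate 1 (-0.66, 0.0261), and lower than in pB3 without that library (-0.75, 0.0287). Trim25, a ubiquitin ligase that acts on RIG-I, went the other way from the list, with 61.9 CPM for pB2 and 70.6 for pB3 against 128 for Epcam hi and 103 for 687g. Trim25 was 1.05 ± 0.20 higher on the log2 scale in Epcam hi than in pB2 (edgeR adjusted p = 0.00064). It was also called in 687g against pB2 (0.73, adjusted p = 0.00763), but not with total counts (0.0655) or without pB2 replicate 1 (0.0585) or 687g replicate 1 (0.0568), and in pB3 against Epcam hi (-0.86, 0.00509), but not without pB3 replicate 1 (0.0970). Eif2ak2, the kinase PKR, had line means of 28.1, 19.8, 35.5 and 27.7 CPM for pB2, pB3, Epcam hi and 687g. In the full fit it was called in pB3 against Epcam hi alone (-0.84, edgeR adjusted p = 0.00761), and not without pB3 replicate 2 (0.154) or Epcam hi replicate 1 (0.0605). It was also called lower in pB3 than in pB2 with RLE factors (-0.55, edgeR adjusted p = 0.0451), total counts (-0.71, 0.0167), a fit of the 2 lines (-0.50, 0.00887) and without Epcam hi replicate 1 (0.0407) or 2 (0.0346). Dhx58, the RIG-I-like helicase LGP2, was low in every line at 0.632 to 1.84 CPM, with line means in the order pB2, pB3, 687g and Epcam hi, and its single call in the full fit, Epcam hi against pB2 (-1.54, edgeR adjusted p = 0.0254), was lost with DESeq2 (0.0737) and without pB2 replicate 1 (0.119), pB2 replicate 2 (0.0862) or Epcam hi replicate 2 (0.0517). It was called lower in 687g than in pB2 with total counts (-1.42, edgeR adjusted p = 0.0330), limma-voom (-1.22, 0.0465), a fit of the 2 lines (-1.18, 0.0170) and without Epcam hi replicate 1 (0.0237) or 2 (0.0239). None of the 7 sensors was called in 687g against Epcam hi in the full fit. Ifih1 was called lower there without Epcam hi replicate 2 (-1.03), and Ddx58 without 687g replicate 1 (-1.34).

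Ligand transcripts were nearly absent. Of 21 interferon genes, 19 had 0 counts in all 8 libraries, which allows up to 3 counts, or 0.159 to 0.222 CPM, in a single library (counting error only). Ifnb1 had 3 counts and Ifne 2 over all libraries. The kappa, gamma and lambda genes Ifnk, Ifng, Ifnl2 and Ifnl3 were among the 19.

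Both chains of the type I receptor were expressed in every library. Ifnar1 was measured at 45.4 and 47.6 CPM for pB2, 73.4 and 76.8 for pB3, 52.6 and 53.2 for Epcam hi and 73.3 and 63.7 for 687g. Ifnar2 was measured at 11.2 and 13.6 CPM for pB2, 15.3 and 13.3 for pB3, 9.12 and 9.40 for Epcam hi and 15.2 and 17.2 for 687g. Ifnar1 was thus higher in pB3 and 687g than in pB2 and Epcam hi without overlap, and the spread of its line means was under 2-fold. In 687g against Epcam hi Ifnar1 was not called in the full fit (0.37, and 0.51 without 687g replicate 2). Ifnar1 was 0.69 ± 0.17 higher on the log2 scale in pB3 than in pB2 (edgeR adjusted p = 0.00439), but not past the threshold without pB2 replicate 1 (0.0534) or pB3 replicate 2 (0.0741). It was 0.56 ± 0.17 higher in 687g than in pB2 (0.0135), but not with total counts (0.142) or without pB2 replicate 1 (0.103) or 2 (0.0640). Ifnar2 was 0.80 ± 0.22 higher in 687g than in Epcam hi (edgeR adjusted p = 0.00967), with 0.0546 in a fit of those 2 lines. Calls of both chains in pB3 against Epcam hi (0.50 with adjusted p = 0.039 for Ifnar1, 0.62 with 0.0444 for Ifnar2) were lost with total counts (0.0788 and 0.0785), with no filter on low counts (0.0646 and 0.0626) and without any 1 of pB2 replicate 1 (0.0621 and 0.0565), pB2 replicate 2 (0.0539 and 0.0519), pB3 replicate 1 (0.196 and 0.314), pB3 replicate 2 (0.270 and 0.126) and Epcam hi replicate 1 (0.111 and 0.100). Ifnar2's call there was also lost with DESeq2 (0.0756) and limma-voom (0.0526). Some 7.89% of Ifnar2's 50-base stretches also occur in the overlapping gene Gm21970, which had 0 counts in all libraries.

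**Figure D3:**
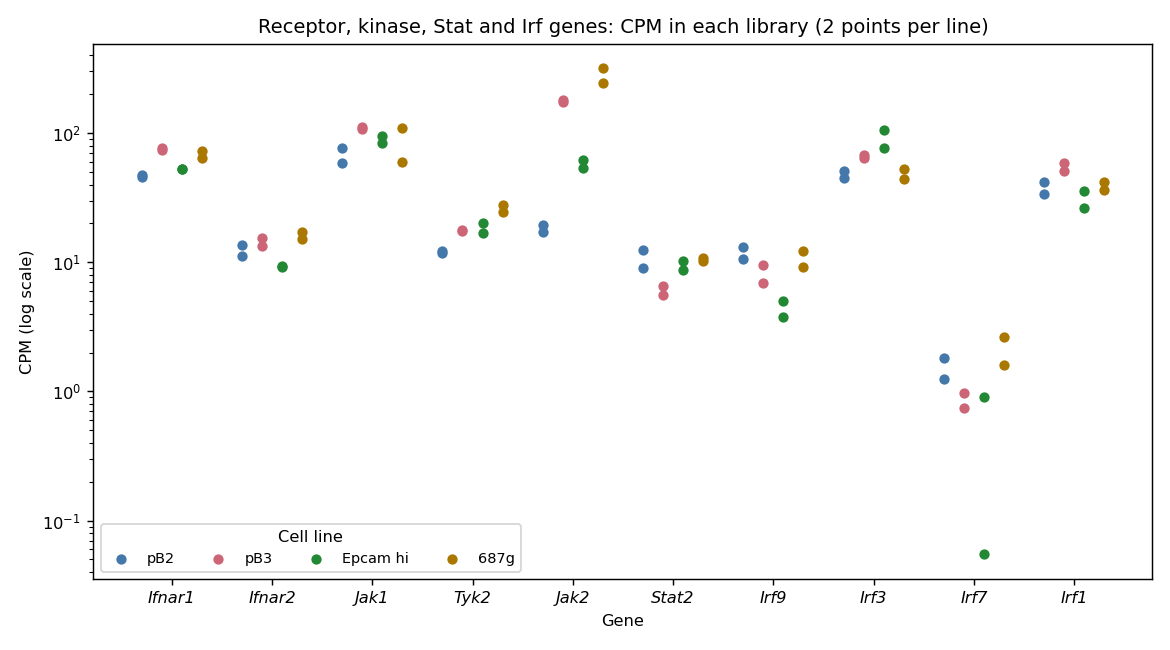
CPM (log scale) of receptor, kinase, Stat and Irf genes in each library, 2 points per line. Jak2 shows 687g highest at 318 and 246 CPM and pB2 lowest at 17.3 and 19.5, Irf3 shows Epcam hi highest, and Irf7 has 1 Epcam hi library far below the other 7.

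Downstream of the receptor, Irf9, which supplies the DNA-binding part of the interferon-induced Stat complex, was measured at 13.2 and 10.5 CPM for pB2, 6.92 and 9.45 for pB3, 4.98 and 3.77 for Epcam hi and 12.2 and 9.26 for 687g. The Epcam hi libraries were the lowest, and those of pB2 and 687g overlapped. Irf9 fell by 1.44 ± 0.28 in Epcam hi against pB2 (edgeR adjusted p = 0.000656) and was 1.30 ± 0.28 higher in 687g than in Epcam hi (0.00216). Its call in pB3 against Epcam hi (0.91, edgeR adjusted p = 0.0258) was lost in a fit of the 2 lines (0.0615) and without pB3 replicate 2 (0.257) or Epcam hi replicate 2 (0.0624). Stat2, another subunit of that complex, was measured at 9.10 and 12.3 CPM for pB2, 6.58 and 5.56 for pB3, 10.2 and 8.75 for Epcam hi and 10.8 and 10.3 for 687g, so that pB3 was the lowest line. It fell by 0.83 ± 0.25 in pB3 against pB2 (edgeR adjusted p = 0.0147), a call lost without pB2 replicate 2 (0.171), pB3 replicate 1 (0.0583) or pB3 replicate 2 (0.161). In 687g against pB3 it was 0.80 ± 0.25 higher (0.03), which did not hold without pB3 replicate 1 (0.111), pB3 replicate 2 (0.279), 687g replicate 1 (0.0829) or 687g replicate 2 (0.0566).

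Irf3, the constitutive factor activated by the sensors, had its highest level in Epcam hi, the line lowest for most induced genes. Its levels were 51.0 and 44.6 CPM for pB2, 64.1 and 68.3 for pB3, 106 and 77.4 for Epcam hi and 43.9 and 52.6 for 687g. Both Epcam hi libraries lay above the other 6. Irf3 was 0.94 ± 0.20 higher in Epcam hi than in pB2 (edgeR adjusted p = 0.00131) and fell by 0.92 ± 0.20 in 687g against Epcam hi (0.00219), while pB3 against Epcam hi was not called (-0.47 ± 0.20, 0.0928; -0.61 with 0.0353 without Epcam hi replicate 2). Irf7, the induced factor that amplifies type I interferon genes, was low, with line means of 1.53 CPM for pB2, 0.855 for pB3, 0.484 for Epcam hi and 2.12 for 687g. It was called higher in 687g than in Epcam hi (2.21 ± 0.74, edgeR adjusted p = 0.0326), but the 2 Epcam hi libraries held 13 and 1 counts, and the log2 fold change was 5.10 without replicate 1 and 1.30 (0.0545) without replicate 2. The Irf7 call was also lost in a fit of the 2 lines (0.0517) and without pB2 replicate 1 (0.0573), pB2 replicate 2 (0.0513) or 687g replicate 1 (0.177). Irf1, a factor induced mainly by gamma interferon, had line means of 38.0, 54.5, 30.9 and 38.99 CPM for pB2, pB3, Epcam hi and 687g and was called in the full fit in pB3 against Epcam hi alone (0.82, edgeR adjusted p = 0.0082; 0.0956 without pB3 replicate 2). It was also called higher in pB3 than in pB2 in a fit of the 2 lines (0.54, 0.00231) and without any 1 of the Epcam hi or 687g libraries (0.51 to 0.53, 0.0293 to 0.0421).

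The receptor-bound kinases are no members of the list. Jak2, a kinase of the gamma interferon and other cytokine receptors, was measured at 17.3 and 19.5 CPM for pB2, 179 and 175 for pB3, 61.5 and 53.9 for Epcam hi and 318 and 246 for 687g. It was higher by 3.26 ± 0.20 in pB3 than in pB2 (edgeR adjusted p = 1.60e-08) and by 2.29 ± 0.19 in 687g than in Epcam hi (4.37e-07). Jak1 and Tyk2, the kinases bound to the type I receptor, varied less, with line means of 67.4 to 110 CPM and 11.96 to 26.2 CPM.

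The ISG15 system showed genes moving in opposite directions. Isg15 encodes a ubiquitin-like protein that is joined to other proteins, and Usp18 encodes the protease that removes it and also restrains signalling at IFNAR2. Isg15 was measured at 10.1 and 7.89 CPM for pB2, 3.29 and 3.11 for pB3, 1.33 and 0.820 for Epcam hi and 7.53 and 5.84 for 687g. No library of one line overlapped those of another, and the order was pB2, 687g, pB3 and Epcam hi. The neighbouring pair pB2 and 687g did not differ past the threshold (-0.42 ± 0.30 in 687g, edgeR adjusted p = 0.263). Isg15 fell by 1.48 ± 0.32 in pB3 against pB2 (edgeR adjusted p = 0.00154) and by 3.07 ± 0.35 in Epcam hi against pB2 (6.57e-06), and was 2.65 ± 0.35 higher in 687g than in Epcam hi (4.51e-05) and 1.59 ± 0.37 higher in pB3 than in Epcam hi (0.00464). Its call in 687g against pB3 (1.06, edgeR adjusted p = 0.0234) was lost without pB3 replicate 1 (0.124), pB3 replicate 2 (0.167) or 687g replicate 1 (0.119).

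Usp18 was measured at 37.4 and 28.5 CPM for Epcam hi, against 1.11 and 0.848 for pB2, 1.01 and 1.36 for pB3 and 2.79 and 1.07 for 687g. Both Epcam hi libraries stood far above the other 6. The log2 fold change was 5.08 ± 0.40 in Epcam hi against pB2 (edgeR adjusted p = 1.39e-07), -4.79 ± 0.39 in pB3 against Epcam hi (5.35e-07) and -4.06 ± 0.36 in 687g against Epcam hi (8.31e-07). The last value was -4.90 without 687g replicate 1, which had 50 counts where replicate 2 had 16. In the same Epcam hi libraries Isg15 was at its lowest. Herc6, a ubiquitin ligase that attaches ISG15 in mice, stayed between 1.79 and 3.82 CPM in line means. It was called higher in 687g than in Epcam hi (1.10, edgeR adjusted p = 0.0314), but not with DESeq2 (0.0679), total counts (0.0562) or a fit of the 2 lines (0.152), nor without pB2 replicate 1 (0.0518), pB3 replicate 1 (0.0617), pB3 replicate 2 (0.0637) or 687g replicate 1 (0.129). The activating enzyme Uba7, no member of the list, was low throughout, at 0.388 to 1.81 CPM per library, and the conjugating enzyme Ube2l6 at 2.37 to 5.10 CPM.

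Usp18 lies on chromosome 6 (121245906 to 121270917, plus strand, GRCm38). Genes that start within 1 Mb of it, 13 of which were tested, had a median log2 fold change of 0.50 in Epcam hi against pB2 and -1.08 in 687g against Epcam hi, so that 12 of the 13 lay below 0 in the second contrast. The nearest of them, Tuba8, an alpha tubulin gene whose start lies 35.2 kb upstream, had line means of 0.624 CPM for pB2, 3.58 for pB3, 43.7 for Epcam hi and 0.475 for 687g. Tuba8 was 6.12 higher on the log2 scale in Epcam hi than in pB2 (edgeR adjusted p = 3.50e-09). The next gene, Pex26, was 1.35 higher (0.000285). Part of the neighbourhood of Usp18 was thus higher in Epcam hi as well, and whether this bears on the level of Usp18 was not tested. Isg15 had the opposite sign to its neighbourhood, with -3.07 in Epcam hi against pB2 where the median of its 40 tested neighbours was 1.25. Irf9 and Cmpk2 had the sign of theirs in that contrast, as did further genes such as Rtp4 and Ifit2, while Bst2 and Parp9, among others, did not. Irf9 stood at -1.44 where its 45 neighbours had a median of -1.06, 34 of them below 0. Cmpk2 stood at -9.47 where the median of only 3 neighbours was -6.07, 2 of them below 0.

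**Figure D4:**
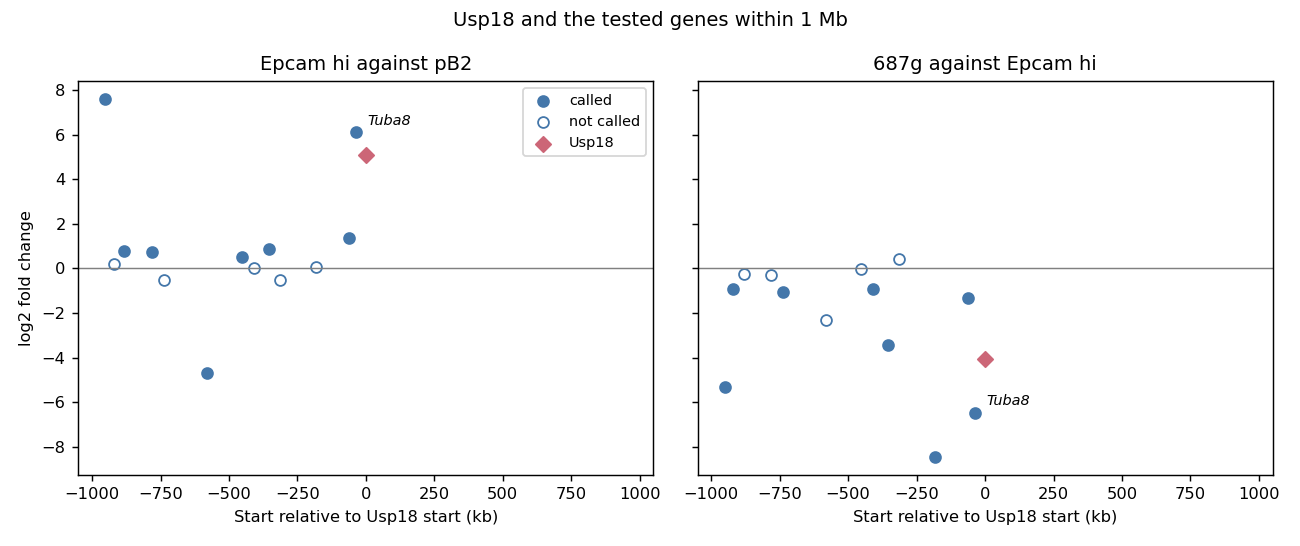
Log2 fold change of Usp18 (diamond) and the 13 tested genes that start within 1 Mb (circles, filled where called by edgeR) against the distance of their start from that of Usp18 in kb, for Epcam hi against pB2 and 687g against Epcam hi. Usp18 and Tuba8 lie side by side, at 5.08 and 6.12 in the left panel.

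The Ifit genes encode proteins that bind foreign RNA. Ifit2 was measured at 25.4 and 24.6 CPM for pB2, 8.66 and 10.2 for pB3, 1.61 and 0.601 for Epcam hi and 0.390 and 0.0671 for 687g. The 4 lines did not overlap, in the order pB2, pB3, Epcam hi and 687g. It fell against pB2 in every other line, with log2 fold changes of -1.40 ± 0.32 in pB3 against pB2 (edgeR adjusted p = 0.00267), -4.54 ± 0.40 in Epcam hi against pB2 (5.00e-07) and -6.65 ± 0.49 in 687g against pB2 (6.71e-08). The lowest 2 lines held few reads, 23 and 11 counts for Epcam hi and 7 and 1 for 687g, and their difference (-2.11 ± 0.63, edgeR adjusted p = 0.0179) was lost in a fit of the 2 lines (0.0531), without Epcam hi replicate 1 (-1.29, 0.171) or without 687g replicate 2 (-1.39, 0.123), and was -3.82 without 687g replicate 1. The other values moved too, to -5.35 in Epcam hi against pB2 without Epcam hi replicate 1 and to -8.37 and -5.98 in 687g against pB2 without 687g replicate 1 and 2.

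Ifit1 had another order, with line means of 1.11 CPM for pB2, 0.427 for pB3, 0.242 for Epcam hi and 1.59 for 687g. It was 2.66 ± 0.61 higher in 687g than in Epcam hi (edgeR adjusted p = 0.00343), whereas Ifit2 was lower there. Ifit1 was called lower in Epcam hi than in pB2 (-2.12, edgeR adjusted p = 0.0115), but not without pB2 replicate 1 (0.153). It was called higher in 687g than in pB3 (1.87, 0.026), but not with DESeq2 (0.120), nor without pB2 replicate 1 (0.0581), pB2 replicate 2 (0.0512), pB3 replicate 1 (0.273), pB3 replicate 2 (0.132), 687g replicate 1 (0.0923) or 687g replicate 2 (0.0955). Ifit3 had 0 to 7 counts per library, and 51.2% of its 50-base stretches also occur in Ifit3b, so its reads may be split.

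The Oas genes encode synthetases of oligoadenylates, signalling molecules made on double-stranded RNA, or proteins related to them. None reached 5 CPM in a line mean, and the genes given here by library were chosen after their values were seen. Oas1a had 60 and 59 counts in pB2 (4.44 and 3.13 CPM) and 0 to 2 counts in each other library. Its summed counts gave a CPM ratio of pB2 over pB3 of 55.7 (exact 95% counting interval 15.1 to 466), over Epcam hi of 59.8 (16.2 to 499) and over 687g of 40.2 (13.4 to 198). The fitted log2 fold changes against pB2 were -5.68 for pB3, -5.78 for Epcam hi and -5.26 for 687g (edgeR adjusted p = 7.30e-05, 5.32e-05 and 6.98e-05). These fitted values depend on the prior count, and ran from -4.78 to -8.93 for pB3 without pB3 replicate 1 or 2 and from -5.00 to -8.89 for Epcam hi without Epcam hi replicate 1 or 2. Some 57.6% of the 50-base stretches of Oas1a also occur in Oas1g, which had 15 and 14 counts for pB2, 0 and 2 for pB3 and 0 in the other 4 libraries, so the division of reads between the 2 genes is uncertain.

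Oasl1, an Oas-like gene without synthetase activity, was measured at 4.73 and 3.76 CPM for pB2, 1.41 and 1.42 for pB3, 0.0702 and 0.164 for Epcam hi and 3.40 and 3.36 for 687g. The order of lines was that of Isg15, with Epcam hi close to the level of 1 to 3 counts. Oasl1 was 4.70 ± 0.56 higher in 687g than in Epcam hi (edgeR adjusted p = 1.39e-05; 5.51 without Epcam hi replicate 2) and fell by 5.03 ± 0.55 in Epcam hi against pB2 (4.09e-06; -5.83 without that library). Its call in pB3 against pB2 (-1.57, edgeR adjusted p = 0.00548) was lost without pB2 replicate 1 (0.0644), pB3 replicate 1 (0.0579) or pB3 replicate 2 (0.0564). In 687g against pB3 (1.25, 0.0353) it was lost with DESeq2 (0.0836) and without any 1 of pB2 replicate 1 (0.0757), pB2 replicate 2 (0.0696), pB3 replicate 1 (0.213), pB3 replicate 2 (0.219), 687g replicate 1 (0.0939) and 687g replicate 2 (0.0848). Oasl2, which also carries ubiquitin-like domains, had line means of 3.21, 1.55, 0.222 and 1.34 CPM for pB2, pB3, Epcam hi and 687g. It fell by 3.84 ± 0.54 in Epcam hi against pB2 (edgeR adjusted p = 4.01e-05) and was 2.58 ± 0.56 higher in 687g than in Epcam hi (0.00228). Oas2 and Oas3 had 0 to 4 counts in every library.

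**Figure D5:**
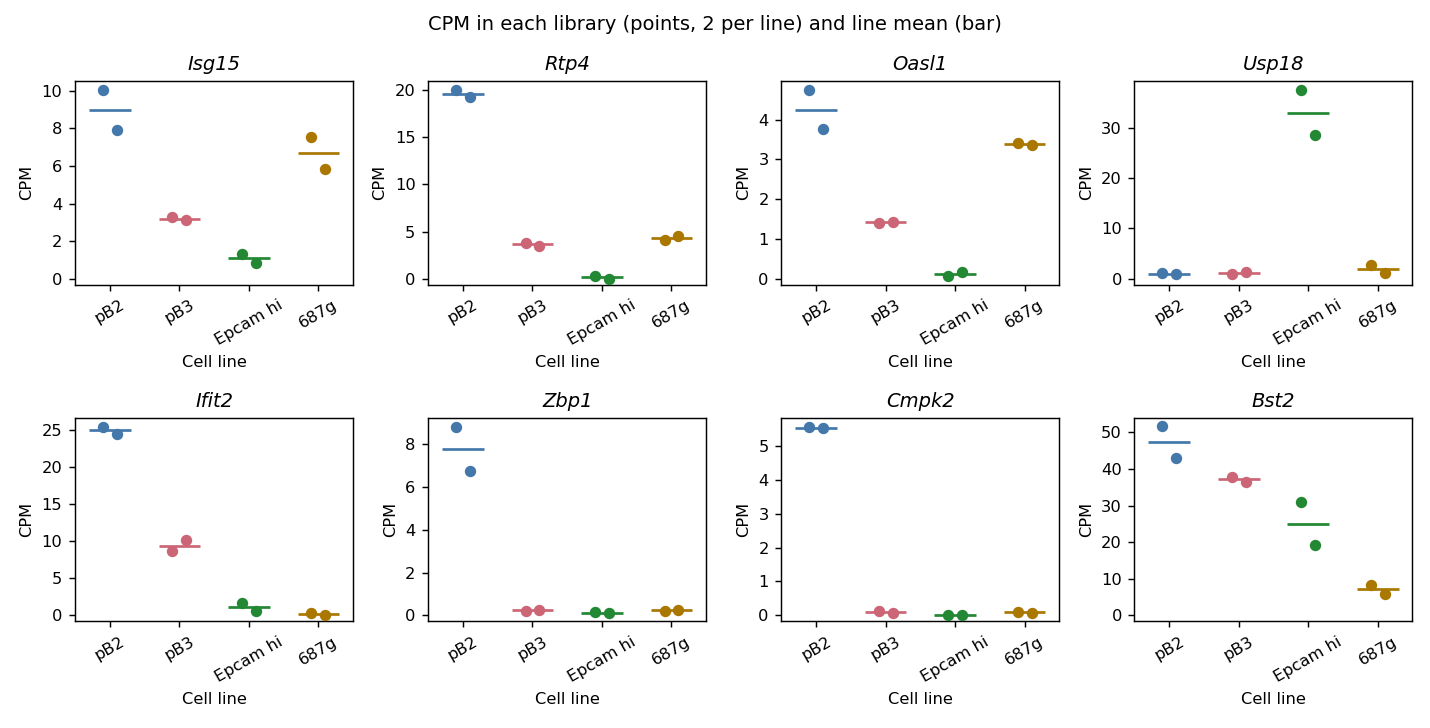
CPM of 8 genes in each library (points, 2 per line) with the line mean (bar), on linear axes that differ between panels. In Isg15, Rtp4 and Oasl1 the Epcam hi libraries are lowest, in Usp18 they are highest, in Zbp1 and Cmpk2 pB2 stands alone, and Bst2 and Ifit2 are lowest in 687g.

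Parp9 and Dtx3l encode a mono-ADP-ribosyltransferase and the ubiquitin ligase that forms a complex with it. Parp9 was measured at 57.0 and 51.2 CPM for pB2, 24.6 and 25.4 for pB3, 28.3 and 16.8 for Epcam hi and 24.9 and 23.4 for 687g. Dtx3l was measured at 15.2 and 20.3 CPM for pB2, 8.60 and 7.70 for pB3, 7.16 and 4.65 for Epcam hi and 11.2 and 6.11 for 687g. In both, the pB2 libraries lay above all others, and the other 3 lines overlapped or nearly so. Parp9 fell against pB2 by 1.11 ± 0.23 in pB3 (edgeR adjusted p = 0.00112), 1.27 ± 0.23 in Epcam hi (0.000369) and 1.16 ± 0.23 in 687g (0.000654). Dtx3l fell against pB2 by 1.13 ± 0.31 in pB3 (edgeR adjusted p = 0.00813; 0.0850 without pB2 replicate 2 and 0.0529 without pB3 replicate 2), 1.60 ± 0.31 in Epcam hi (0.000722) and 1.03 ± 0.30 in 687g (0.011; 0.107 without pB2 replicate 2 and 0.0882 without 687g replicate 2). Parp14, another ADP-ribosyltransferase, did not share this order, with 3.85 and 4.08 CPM for pB2, 5.78 and 5.44 for pB3, 3.86 and 1.69 for Epcam hi and 9.54 and 6.17 for 687g. Parp14 was 1.52 ± 0.38 higher in 687g than in Epcam hi (edgeR adjusted p = 0.00593; 2.21 without Epcam hi replicate 1 and 1.20 with 0.0598 without 687g replicate 1). Its call in 687g against pB2 (0.99, edgeR adjusted p = 0.0357) was lost with DESeq2 (0.0620), total counts (0.118) and without pB2 replicate 1 (0.158), pB2 replicate 2 (0.116) or 687g replicate 1 (0.259).

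Of the further effectors, Cmpk2, a mitochondrial nucleotide kinase, was measured at 5.55 and 5.51 CPM for pB2, 75 and 104 counts, and had 0 to 2 counts in every other library. The CPM ratio of pB2 over pB3 was 55.9 (exact 95% counting interval 18.8 to 274) and over 687g 60.5 (20.4 to 296). In Epcam hi both libraries were at 0, so pB2 was at least 59.9-fold higher against a floor of 3 counts over that line. The call was made in each of these contrasts (edgeR adjusted p = 8.21e-06, 5.50e-06 and 1.98e-06). Rsad2, the antiviral protein viperin, lies beside Cmpk2 on chromosome 12. It had too few counts for a test, with 8 and 10 counts for pB2, 1 and 1 for pB3, 1 and 0 for Epcam hi and 3 and 5 for 687g. Its CPM ratio of pB2 over pB3 was 8.43 (2.02 to 74.9) and over Epcam hi 18.1 (2.85 to 753). With no filter on low counts Rsad2 was called in pB3 against pB2 (-2.94, edgeR adjusted p = 0.0388) and in Epcam hi against pB2 (-3.89, 0.0078). That fit also called it in the difference of the within-model contrasts (5.68, 0.00838).

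Bst2, or tetherin, which holds budding virus at the cell surface, was measured at 51.7 and 43.0 CPM for pB2, 37.7 and 36.6 for pB3, 30.95 and 19.1 for Epcam hi and 8.42 and 5.91 for 687g. The 4 lines did not overlap, and 687g was the lowest. Bst2 fell by 1.80 ± 0.26 in 687g against Epcam hi (edgeR adjusted p = 9.05e-05), 2.37 ± 0.26 against pB3 (1.27e-05) and 2.72 ± 0.26 against pB2 (1.10e-06). Epcam hi was 0.92 ± 0.24 below pB2 on the log2 scale (edgeR adjusted p = 0.00579). In the full fit Bst2 was called neither in pB3 against pB2 (-0.35) nor in pB3 against Epcam hi (0.57). A fit of the 2 lines called the first (-0.33, edgeR adjusted p = 0.0390). The second was called with no filter on low counts (0.61, 0.0440). Samd9l, a translation-restricting factor, was measured at 6.66 and 6.25 CPM for pB2, 5.44 and 5.82 for pB3, 1.33 and 2.84 for Epcam hi and 2.40 and 1.14 for 687g. Its levels in pB2 and pB3 lay above those in the reporter-model lines, and the 2 lines of a model did not differ past the threshold (edgeR adjusted p = 0.72 in pB3 against pB2 and 0.704 in 687g against Epcam hi). Samd9l fell by 1.84 ± 0.42 in 687g against pB2 (edgeR adjusted p = 0.00201; -2.48 without 687g replicate 1) and by 1.60 ± 0.41 in Epcam hi against pB2 (0.00506; -2.34 without Epcam hi replicate 2). In 687g against pB3 (-1.65, 0.00972) the call was lost without 687g replicate 2 (0.0836), and the value was -2.29 without 687g replicate 1. The call in pB3 against Epcam hi (1.41, 0.0198) was lost in a fit of the 2 lines (0.0543) and without pB3 replicate 1 (0.0565), pB3 replicate 2 (0.0814) or Epcam hi replicate 1 (0.0541), and the value was 2.14 without Epcam hi replicate 2. Mx1 and Mx2, of the Mx GTPase family, stayed at 11 counts or fewer in every library, and the annotation gives Mx2 as a polymorphic pseudogene.

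Rtp4, a chaperone-like protein first described for odorant receptors, was measured at 20.0 and 19.2 CPM for pB2, 3.83 and 3.49 for pB3, 0.281 and 0 for Epcam hi and 4.07 and 4.56 for 687g. The libraries of pB3 and 687g lay close together, between pB2 and Epcam hi. Rtp4 fell by 2.42 ± 0.34 in pB3 against pB2 (edgeR adjusted p = 4.62e-05) and by 2.18 ± 0.33 in 687g against pB2 (7.97e-05), and 687g and pB3 did not differ past the threshold (0.24 ± 0.35, 0.695). Epcam hi held 4 counts in 1 library and 0 in the other. The log2 fold change of 687g against Epcam hi was 5.03 ± 0.57 (edgeR adjusted p = 8.88e-06), 9.13 without Epcam hi replicate 1 and 3.98 without replicate 2. That of Epcam hi against pB2 was -7.21 ± 0.52 (6.44e-08), with -11.31 and -6.16 in those fits. Some 13.9% of the exon bases of Rtp4 overlap the gene Gm45338 on the same strand. Gm45338 had 135 to 157 counts in the pB3 and 687g libraries and 2 to 6 in the others, and how reads in the overlap were counted is not given in the sources used here.

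Ifi27, a small mitochondrial and nuclear membrane protein, had a different order, with 32.8 and 25.0 CPM for pB2, 48.6 and 51.5 for pB3, 10.7 and 10.1 for Epcam hi and 58.5 and 61.1 for 687g. The lines did not overlap, 687g being highest and Epcam hi lowest, but 687g against pB3 was not called (0.26). Ifi27 was 2.53 ± 0.20 higher in 687g than in Epcam hi (edgeR adjusted p = 2.52e-07) and 0.80 ± 0.19 higher in pB3 than in pB2 (0.00311; 0.0683 without pB2 replicate 2). With Ifnar1 it made up the 2 genes called higher in pB3 than in pB2. Ifi35, a partner of the N-myc interactor, was measured at 43.4 and 30.6 CPM for pB2, 14.1 and 16.6 for pB3, 20.9 and 11.1 for Epcam hi and 14.8 and 19.1 for 687g. It fell against pB2 by 1.27 ± 0.29 in pB3 (edgeR adjusted p = 0.00234), 1.21 ± 0.28 in Epcam hi (0.00277) and 1.13 ± 0.28 in 687g (0.00418; 0.0611 without pB2 replicate 1).

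Ifi44 was low, with 14 and 18 counts in pB2 and 0 to 4 in each other library, and a CPM ratio of pB2 over pB3 of 15.0 (3.82 to 129). Its calls against pB2 (edgeR adjusted p = 0.00242, 0.0189 and 0.0112 for pB3, Epcam hi and 687g) depended on single libraries. The call in pB3 was lost without pB3 replicate 1 (0.0842), that in Epcam hi with DESeq2 (0.164) and without pB2 replicate 1 (0.151), pB2 replicate 2 (0.129), Epcam hi replicate 2 (0.0585) or 687g replicate 1 (0.0503), and that in 687g with DESeq2 (0.126) and without pB2 replicate 1 (0.116), pB2 replicate 2 (0.0993), 687g replicate 1 (0.0777) or 687g replicate 2 (0.125). Xaf1, a binding partner of the inhibitor XIAP, had line means of 0.640, 1.52, 0.784 and 1.88 CPM for pB2, pB3, Epcam hi and 687g. In the full fit it was called in 687g against pB2 alone (1.52, edgeR adjusted p = 0.0226), and not with DESeq2 (0.0929), total counts (0.0518) or without pB2 replicate 1 (0.148), pB2 replicate 2 (0.105) or 687g replicate 2 (0.193). Xaf1 was also called higher in pB3 than in pB2 in a fit of the 2 lines (1.23, 0.0054) and without Epcam hi replicate 1 (1.23, 0.0315) or 2 (1.21, 0.0357), and in 687g than in Epcam hi without Epcam hi replicate 1 (1.49, 0.0419) or 687g replicate 1 (1.65, 0.0464).

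Calls were counted separately for genes with and without the ISRE core in their window. Of 8 tested genes with the core, 5 were called lower and 0 higher in pB3 against pB2 (median -1.33), and of 17 tested genes with a window but no core, 6 were lower and 1 higher (median -0.53). In Epcam hi against pB2 the counts were 4 lower and 0 higher of 8 (median -0.86) and 9 lower and 2 higher of 17 (median -1.44). In 687g against Epcam hi they were 2 higher and 1 lower of 8 (median -0.10) and 6 higher and 2 lower of 17 (median 0.57). Of all genes tested, 23.2% were called lower and 21.6% higher in pB3 against pB2. The shares were 25.6% lower and 25.8% higher in Epcam hi against pB2. They were 18.0% lower and 18.4% higher in 687g against Epcam hi. Among the genes shown above, Oas1a carries a core and Cmpk2 none, and both were near 0 outside pB2, while Isg15 carries a run of cores and Oasl1 none, and both were lowest in Epcam hi. Bst2, with a core, and Ifit2, with none in its windows, were both lowest in 687g. For Usp18, Zbp1, Rtp4, Parp9, Parp14, Ifi27, Dhx58, Tmem173, Oas2, Mx1 and Mx2 no window was given.

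A wider list of 102 pathway genes outside the 39 (ligands, other receptors, kinases, inducers, negative regulators, gamma-interferon-linked genes and further induced genes) did not lean the same way in pB3 against pB2. Of its 72 tested genes, 19 were called higher, 16 lower and 37 not, with a median of 0.02, where 21.6% of all genes were called higher and 23.2% lower. In 687g against Epcam hi 22 were called higher and 14 lower (median 0.04), where 18.4% and 18.0% of all genes were, and in Epcam hi against pB2 21 were higher and 27 lower (median -0.33), where 25.8% and 25.6% were. The 13 tested gamma-interferon-linked genes counted 2 higher and 8 lower in Epcam hi against pB2, a contrast in which 25.6% of all genes were called lower, with a median of -1.81. Among them Ciita, the coactivator of MHC class II genes, had 49 counts in pB2 and 0 in the other 3 lines, so pB2 was at least 15.3-fold above pB3, 16.4-fold above Epcam hi and 16.6-fold above 687g. Nlrc5, the coactivator of MHC class I genes, was chosen after its values were seen and had the pattern of Usp18, with 37.2 and 41.7 CPM for Epcam hi, 0.666 and 0.742 for pB2, 4.84 and 5.05 for pB3 and 1.12 and 1.34 for 687g. It was 5.78 ± 0.28 higher in Epcam hi than in pB2 (edgeR adjusted p = 1.52e-09).

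Of 8 further genes that act upstream in induction, all tested, 1 was called higher and 1 lower in pB3 against pB2, 1 higher and 2 lower in 687g against Epcam hi, and 3 higher and 3 lower in Epcam hi against pB2, against the shares of all genes just given. Cgas, the cytosolic DNA sensor, was measured at 19.3 and 17.6 CPM for pB2, 21.9 and 23.2 for pB3, 4.42 and 4.65 for Epcam hi and 16.6 and 21.0 for 687g, and it fell by 2.02 ± 0.22 in Epcam hi against pB2 (edgeR adjusted p = 4.25e-06). Tlr3, the endosomal sensor of double-stranded RNA, was measured at 32.7 and 43.2 CPM for pB2, 4.50 and 4.21 for pB3, 14.4 and 17.4 for Epcam hi and 1.39 and 1.07 for 687g, and it fell within both models, changing by -3.12 ± 0.24 in pB3 against pB2 (1.72e-07) and by -3.67 ± 0.28 in 687g against Epcam hi (1.72e-07). The lines thus separated without overlap in Tlr3, in the order pB2, Epcam hi, pB3 and 687g. Mavs, the mitochondrial adaptor of the RNA sensors, was at 13.0 to 25.0 CPM in every library. Ikbke, a kinase of the Irf3 pathway that was also chosen after its values were seen, was measured at 118 and 83.5 CPM for Epcam hi against 2.59 to 22.1 CPM in the other libraries.

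Of 30 tested further induced genes, 14 were called higher and 3 lower in 687g against Epcam hi, where 18.4% and 18.0% of all genes were. In pB3 against pB2, 11 were higher and 4 lower, where 21.6% and 23.2% of all genes were. In Epcam hi against pB2, 9 were higher and 11 lower, where 25.8% and 25.6% of all genes were. The 2 with the largest change in 687g against Epcam hi were Mndal and Ifi203. Mndal was measured at 264 and 255 CPM for 687g against 0.0740 to 2.08 CPM elsewhere, and Ifi203 at 51.8 and 47.0 CPM against 0 to 0.777 CPM. Both belong to the family of pyrin and HIN domain proteins that bind DNA. Mndal was 9.01 ± 0.33 (edgeR adjusted p = 2.59e-10) and Ifi203 8.56 ± 0.45 (4.43e-09) higher on the log2 scale in 687g than in Epcam hi. Ifi47, an interferon-induced GTPase, was higher in both lines with high Vim, with 19.3 and 18.9 CPM for pB3 and 29.1 and 35.4 for 687g against 1.04 and 0.848 for pB2 and 3.44 and 1.75 for Epcam hi (4.35 ± 0.33 in pB3 against pB2, edgeR adjusted p = 1.40e-07). These genes did not follow the order of Isg15, in which pB2 was highest.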

How the data were processed

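Per the submitters' processing notes and design text, the authors used STAR 2.6.1a for alignment of single-end reads to GRCm38 (mm10), took gene counts from featureCounts run as reverse-stranded, and used DESeq2. The deposited files hold raw counts, 1 column per library, for 53379 genes. How multi-mapping reads were treated is not given in the sources used here. Symbols, positions and exon lengths came from GENCODE M21 (same build), which named 53274 of the gene IDs.

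Genes passing filterByExpr by line (15890) were fitted with edgeR 4.0.16 in R 4.3.3, with TMM factors, 1 coefficient per line over all 8 libraries, quasi-likelihood F tests and Benjamini-Hochberg adjustment over all genes tested, two-sided. The fit had 4 residual degrees of freedom and a biological coefficient of variation of 0.178. The script was tested on simulated counts. Alternatives were DESeq2 1.42.0, limma-voom (limma 3.58.1), RLE factors, total counts, no low-count filter, fits of 2 lines, the replicate block and each library left out. The alternatives were run for the 39 genes and not for the wider pathway list.

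The genes, lists and tests were chosen with earlier results of these data known. Values by library are given for up to 3 genes per role, those with the largest absolute log2 fold change over the 6 pairwise contrasts among called genes with at least 5 CPM in the highest line, and for Irf3, Ifnar1 and Ifnar2, while other genes given by library were chosen after their values were seen. Of the wider list, Jak1, Tyk2, Jak2, Ifnb1, Ifne, Cgas, Mavs, Tlr3 and the 2 called genes with the largest absolute change in each within-model contrast were named, and Nlrc5, Ikbke, Uba7 and Ube2l6 were added after their values were seen. Some genes named by these rules are not reported here. A line at 0 counts was given a floor of 3 counts, summed over the line's libraries. The 95% intervals of count ratios are exact and cover counting error only. The replicate numbers were not used to pair the lines in the full fit.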

Additional observations from a re-analysis of the deposited data

Results flagged for a closer look

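For 19 of the 33 tested genes and for 4 named genes of the wider pathway list, the contrast within the reporter model (687g against Epcam hi) differed from that within the MMTV-PyMT model (pB3 against pB2) by edgeR's test of the difference itself. Of all genes tested, 37.7% were called in the same test, 18.2% above 0 and 19.5% below. The values below are 687g against Epcam hi minus pB3 against pB2, on the log2 scale, with edgeR adjusted p over all genes tested. The 4 lines enter with 2 libraries each, and the mouse model and the particular lines cannot be told apart.

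The differences above 0 were led by genes near 0 counts in 1 or more lines. Cmpk2 differed by 9.36 (edgeR adjusted p = 0.000822), Rtp4 by 7.45 (7.17e-07), Oasl1 by 6.28 (6.86e-06), Oas1a by 6.21 (0.0114; 0.115 without 687g replicate 1) and Zbp1 by 5.97 (0.00015). The fitted sizes for Cmpk2 and Oas1a rest on lines with 0 to 3 counts and depend on the prior count. For Rtp4 the value was 11.55 without Epcam hi replicate 1 and 6.41 without Epcam hi replicate 2. For Oas1a it ranged from 5.33 without pB3 replicate 1 to 9.47 without pB3 replicate 2, with 5.42 and 9.33 without Epcam hi replicate 1 and 2. Oasl1 stood at 7.09 without Epcam hi replicate 2.

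Isg15, the ubiquitin-like modifier, differed by 4.13 (edgeR adjusted p = 1.01e-05), with libraries of all 4 lines above 3 counts. Ifit1 differed by 3.99 (0.00184), Oasl2 by 3.63 (0.000951), Irf9 by 1.83 (0.00181), Ifi27 by 1.73 (0.000159), Dtx3l by 1.69 (0.00751) and Parp9 by 1.22 (0.00829). Beside Oas1a, 4 more differences of this sign depended on single libraries or the tool. Ifi44 (3.52, edgeR adjusted p = 0.0437) was not past the threshold with DESeq2 (0.181), without the low-count filter (0.0604) or without any 1 of pB2 replicate 1 (0.160), pB2 replicate 2 (0.147), pB3 replicate 1 (0.260), Epcam hi replicate 2 (0.0717), 687g replicate 1 (0.217) and 687g replicate 2 (0.0865). Its size was 2.62 without pB3 replicate 1 and 6.77 without pB3 replicate 2. Irf7 (3.05, 0.0306) was not past it without pB2 replicate 1 (0.0609), pB2 replicate 2 (0.117), pB3 replicate 1 (0.0733) or 687g replicate 1 (0.120). It was 5.95 without Epcam hi replicate 1 and 2.17 without replicate 2. Stat2 (0.98, 0.0382) was not past it without pB2 replicate 2 (0.159), pB3 replicate 1 (0.0787), pB3 replicate 2 (0.177) or 687g replicate 1 (0.0628). Ifi35 (1.35, 0.0168) was not past it without pB2 replicate 1 (0.0809).

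Usp18 (-4.36, edgeR adjusted p = 5.32e-05; -5.20 without 687g replicate 1), Bst2 (-1.45, 0.00476) and Irf3 (-1.39, 0.00129) were the 3 genes with a difference below 0.

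Outside the 39 genes, Mndal differed by 5.68 (edgeR adjusted p = 0.00062), Ifi203 by 5.64 (0.00625), Cgas by 1.76 (0.000346) and Jak2 by -0.97 (0.00941). Mndal and Ifi203 had been named for the largest changes in 687g against Epcam hi, which is a term of this difference. Values far above 0 were thus favoured by how these genes were picked, and are no separate support. Of the 72 tested genes of the wider list, 21 were called above 0 and 12 below, where 18.2% and 19.5% of all genes were.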

How the results depend on the processing

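No value of the 39 genes changed sign with a call under the alternatives run. Of the calls of the 33 tested genes, 9 of 16 in pB3 against pB2, 10 of 15 in 687g against Epcam hi, 18 of 21 in Epcam hi against pB2, 2 of 7 in 687g against pB3, 7 of 15 in pB3 against Epcam hi, 10 of 19 in 687g against pB2 and 14 of 19 in the difference of the within-model contrasts were kept under every alternative. Outside the fits that leave out a library, 3 counts moved by over 1.5 times: genes higher in pB3 against pB2 were 6 in a fit of the 2 lines instead of 2, and genes higher in 687g against pB2 were 3 with DESeq2 and 1 with total counts instead of 5 (the cause was not tested). With 1 library left out, genes higher ranged from 1 to 5 in pB3 against pB2, 0 to 6 in 687g against pB3 (4 in the full fit), 6 to 13 in pB3 against Epcam hi (11) and 1 to 6 in 687g against pB2, and genes lower from 2 to 6 in pB3 against Epcam hi (4). Such fits leave 1 line with a single library, assumed to vary like the others, and the share of all genes called moved in them as well. Total counts shifted the median of all genes to -0.17 in pB3 against pB2, -0.15 in 687g against Epcam hi, -0.11 in pB3 against Epcam hi and -0.20 in 687g against pB2. The share of calls that were higher then was 37.6% in place of 48.2% in pB3 against pB2 and 37.4% in place of 48.9% in 687g against pB2.

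The difference of replicate 1 and 2 correlated between lines with r = -0.098 to 0.173 across genes. These values cannot tell whether libraries with the same replicate number shared a batch. With the replicate block the 14 counts stayed within 1.5 times (21 in place of 18 lower in Epcam hi against pB2, 3 in place of 4 higher in 687g against pB3). Its fit lost 4 calls: Oasl1 in 687g against pB3 (edgeR adjusted p = 0.0512), Ifnar1 (0.0668) and Ifnar2 (0.0568) in pB3 against Epcam hi, and Ifi44 in the difference of the within-model contrasts (0.0670).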
